A study of Mus musculus with 18 samples.

Results

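The metallothioneins, their regulators and the zinc transporters were followed across 18 RNA sequencing libraries of mouse testis. The genes were chosen by symbol alone: Mt1 to Mt4, Mtf1 and Mtf2, and every symbol made of Slc30a or Slc39a and a number. This gave 30 genes of 20979 symbols, namely 4 metallothioneins, 2 regulators, 10 members of the Slc30a family and 14 of the Slc39a family. All libraries came from ICR mice at an age of 10 weeks, in 6 groups of 3. The first was control and the second received AOS (10 mg/kg). The other 4 groups were all on a high-fat diet: without further treatment (HFD), with the same dose of AOS (HFD-AOS), or with an FMT that the labels call AOS 10 mg/kg in HFD-AOSFMT and control in HFD-conFMT. AOS and FMT are written as labelled because the labels leave them as abbreviations, and what the control mice were fed or given is not stated in the sources used here. The study set out to see how such an FMT bears on testes of mice on the diet. Replicates are not said to be separate animals, so a p-value here covers the spread among these libraries, which may in part be technical. Values were read as FPKM, read fragments scaled by transcript length and library size, though the deposited values name no unit. Such a scale is meant to let genes of different length be compared, but the lengths used are not known here. A gene was tested if its mean over the 18 libraries was at least 1 FPKM, which 13105 genes and 25 of the 30 reached. Tests are from limma on log2(FPKM + 1) with Benjamini-Hochberg adjustment over the 13105 genes, and a change was called at an adjusted p under 0.05.

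Library sums ran from 588081 to 637005 FPKM, between 12996 and 13221 genes reached 1 FPKM, and the number of reads behind a value is unknown. The libraries carried the transcripts of testis: elongating spermatid markers (Tnp1, Tnp2, Prm1, Prm2, Hils1 and Odf1) summed to between 39801 and 59687 FPKM, Leydig cell markers to between 2566 and 4949 FPKM and Sertoli cell markers to between 608 and 689.9 FPKM. In control 3 and HFD-conFMT 2, 7 markers of the epididymis, the duct attached to the testis, summed to 168 and 109 FPKM, against at most 9.73 FPKM in the other libraries. The calls of Mt2, Slc39a9 and Sod1 with all 18 libraries are therefore given with and without both. Other single-gene values and the correlations are not given without both. In such bulk samples, fewer cells of a type and less RNA per cell cannot be told apart.

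Zinc inside a cell is held by metallothioneins, small proteins rich in cysteine that bind zinc, copper and cadmium. Free zinc activates the transcription factor MTF-1, the product of Mtf1, which binds metal response elements in the promoters of Mt1, Mt2 and Slc30a1. Slc30a proteins (ZnT) move zinc out of the cytosol, across the cell membrane or into vesicles and organelles, and Slc39a proteins (ZIP) move it into the cytosol. In testis zinc is needed for the making of sperm, and is bound by the protamines that pack sperm DNA.

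The promoters of Mt1, Mt2 and Slc30a1 are shown because these 3 genes are textbook targets of MTF-1, and their levels are set beside each other further on. Each window runs from 250 bases before to 50 bases after the start annotated by RefSeq, on the plus strand of GRCm38.p6, and is written 5′ to 3′. Mt1 lies at chr8:94178839-94179138, Mt2 at chr8:94172368-94172667 and Slc30a1 at chr1:191906531-191906830. Capitals mark matches on either strand to the core of the metal response element, searched in the spellings TGCACNC and TGCGCNC.
Mt1: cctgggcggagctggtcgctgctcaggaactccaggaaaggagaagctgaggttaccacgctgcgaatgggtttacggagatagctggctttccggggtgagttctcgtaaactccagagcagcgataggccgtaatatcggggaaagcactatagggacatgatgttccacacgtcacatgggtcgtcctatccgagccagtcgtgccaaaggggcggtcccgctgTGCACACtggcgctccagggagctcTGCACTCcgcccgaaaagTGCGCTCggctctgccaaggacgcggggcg
Mt2: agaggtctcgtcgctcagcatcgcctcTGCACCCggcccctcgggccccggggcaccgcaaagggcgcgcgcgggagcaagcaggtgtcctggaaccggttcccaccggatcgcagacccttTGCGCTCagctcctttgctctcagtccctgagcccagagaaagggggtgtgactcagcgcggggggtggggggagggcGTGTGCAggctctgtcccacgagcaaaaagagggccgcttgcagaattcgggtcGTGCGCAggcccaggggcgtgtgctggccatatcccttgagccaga
Slc30a1: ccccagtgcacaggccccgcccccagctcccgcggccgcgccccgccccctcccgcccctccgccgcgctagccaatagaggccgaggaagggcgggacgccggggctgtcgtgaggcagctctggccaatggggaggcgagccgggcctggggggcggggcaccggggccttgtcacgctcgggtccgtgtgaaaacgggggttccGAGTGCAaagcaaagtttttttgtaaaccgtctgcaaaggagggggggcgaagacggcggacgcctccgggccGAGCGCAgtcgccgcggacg
Mt1 held 3 matches, with their first bases at -23, 3 and 21 from the start. Mt2 held 4, at -223, -128, -50 and 5, and Slc30a1 held 2, at -43 and 31. Positions before the start are negative and those after it count from 1. They hold for the 1 start used for each of these 3 genes, and other starts were not searched. GENCODE begins Mt2 at 94172664, close to the end of its window, so the match at 5 lies before that start. Of 32851 RefSeq promoter windows of this length, 25.7% held at least 1 match, 7.11% at least 2, 1.97% at least 3 and 0.517% at least 4. Of the set, 26 genes had a promoter sequence, with 32 windows in all, of which 17 held at least 1 match. By gene, 16 of the 26 held a match in at least 1 window, as did 28.2% of 27025 genes. A match is a run of letters and does not show that a factor binds there.

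Mt1 and Mt2 were by far the most abundant of the 30 transcripts. Mt1 had a mean of 1363 FPKM over the 18 libraries and ranked between 17 and 36 among all genes of a library, and Mt2 had a mean of 478 FPKM and ranked between 110 and 238. Together they made up 0.262% to 0.394% of the summed FPKM of a library. Slc30a3, which loads zinc into synaptic vesicles in brain, came next at 86.0 FPKM and was the leading zinc transporter. Slc39a6, whose protein pairs with that of Slc39a10 at the cell membrane, followed at 30.8 FPKM and led the Slc39a family. Then came Slc30a4 at 22.5 FPKM, Slc39a13 at 21.8 FPKM and Mtf1 at 20.7 FPKM. Across libraries the ranges of these 3 overlapped, so their order is not fixed.

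**Figure D1:**
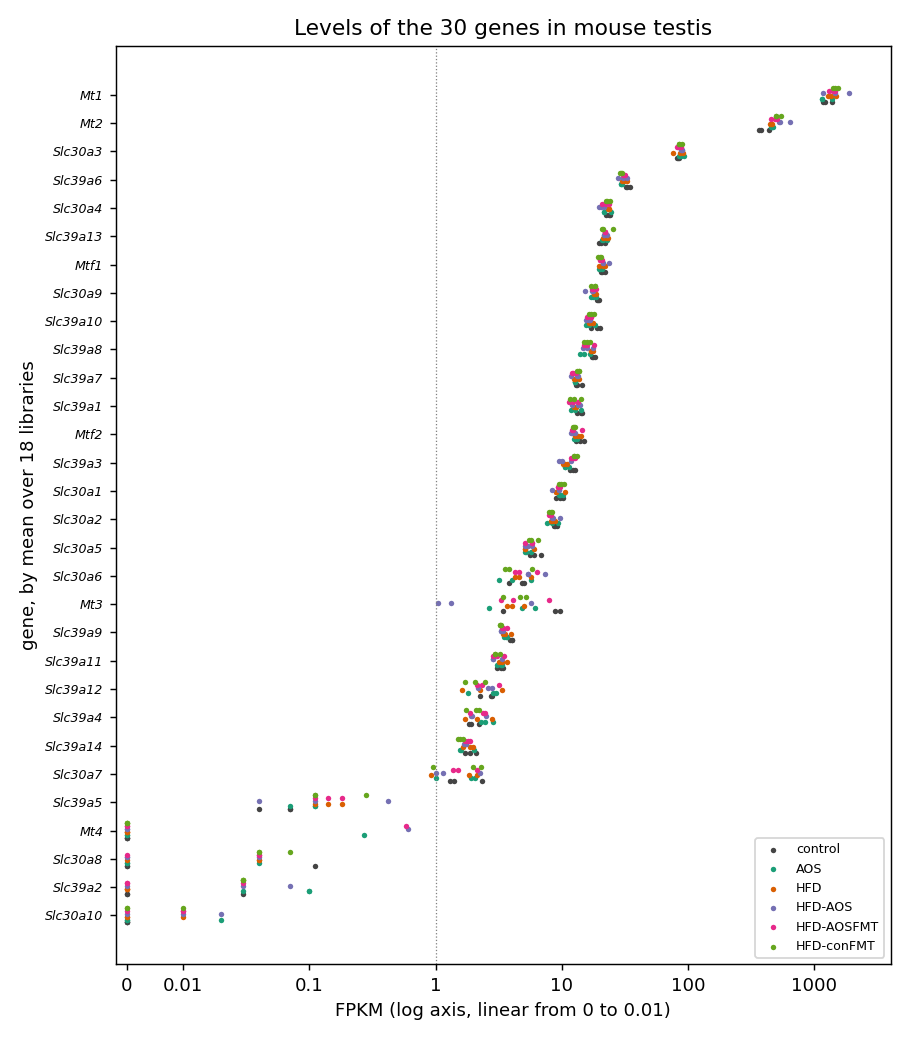
Level of each of the 30 genes in FPKM (log axis, linear from 0 to 0.01) in each of the 18 libraries, coloured by group and ordered by mean; the dotted line marks the 1 FPKM needed for testing. Mt1 and Mt2 stand above 300 FPKM in every library, most transporters lie between 1 and 100 FPKM, and 5 genes lie left of the line.

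A middle class held Slc30a9, Slc39a10, Slc39a8, Slc39a7, Slc39a1, Mtf2 and Slc39a3, with means from 17.9 down to 11.5 FPKM. Slc30a1 (9.56 FPKM), Slc30a2 (8.47 FPKM) and Slc30a5 (5.61 FPKM) lay below, followed by Slc30a6 (4.86 FPKM), Mt3 (4.72 FPKM) and Slc39a9 (3.55 FPKM). Slc39a11, Slc39a12, Slc39a4, Slc39a14 and Slc30a7 were low, with means from 3.18 down to 1.64 FPKM. Below the level for testing were Slc39a5 (mean 0.133 FPKM), Mt4 (0.0806 FPKM), Slc30a8, Slc39a2 and Slc30a10. Mt4 was listed at 0 in 15 libraries, Slc30a10, a manganese exporter, in 11, and Slc30a8, the transporter of insulin granules, and Slc39a2 in 8 each. Values of Slc39a5 stood at 0.28 FPKM in HFD-conFMT 3 and 0.42 FPKM in HFD-AOS 3, and elsewhere at steps of 0.04, 0.07, 0.11, 0.14 and 0.18 FPKM, which a few reads separate. Within groups the members tested varied by a median of 6.08% (coefficient of variation), against 7.89% over all genes tested. By role, the median was 12.3% for the 3 metallothioneins tested, 5.93% for the 8 Slc30a genes and 6.53% for the 12 Slc39a genes.

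Mt2 was the member whose level differed most clearly between groups. It was lowest in control, at 392 ± 38.2 FPKM (SD, n = 3), and highest in HFD-AOS, at 569 ± 66.6 FPKM. The libraries stood at 435, 363 and 376 FPKM in control, at 450.1, 468 and 457 in AOS and at 447, 449 and 462 in HFD. They stood at 646, 526 and 536 FPKM in HFD-AOS, 456, 506 and 490.2 in HFD-AOSFMT and 496, 539.6 and 493 in HFD-conFMT. All 3 control libraries lay below the other 15, which 0.618% of genes tested did. HFD-AOS lay above every library of control, AOS and HFD, as did 7.13%, 5.17% and 4.9% of all genes in turn. Its values overlapped those of HFD-conFMT. Mt2 lies at chr8:94172664-94173568 on the plus strand of GRCm38, and 73.5% of its exon bases are overlapped by an antisense gene, Gm45774. The strand setting of the counting is not given in the sources used here, so reads of both cannot be told apart.

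In the F test over the 6 groups Mt2 was the 1 member of 25 called (limma, adjusted p = 0.0400), where 0.328% of all genes were called. That call was kept in 3 of the 18 fits that left out 1 library, those without AOS 2, HFD-AOS 1 or HFD-AOS 3, and lost in the other 15, the adjusted p over all 18 lying between 0.0297 and 0.156. It was also lost without both control 3 and HFD-conFMT 2 (adjusted p = 0.217). Comparisons of the 3 combined groups with control were added after the data had been seen. Against control Mt2 rose in HFD-AOS by 0.54 on the log2 scale (SE 0.075, 1.45-fold, limma adjusted p = 0.00489). It was the 1 member of 25 called there, where 2.48% of all genes were. Each of the 18 fits without 1 library kept this call, as did that without both control 3 and HFD-conFMT 2 (0.51, adjusted p = 0.0344). It was lost when the model held just the groups compared (adjusted p = 0.260) and after an adjustment for transcript length (0.37, adjusted p = 0.0633).

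Mt2 rose in HFD-conFMT against control by 0.38 (SE 0.075, 1.30-fold, limma adjusted p = 0.0251), 1 of 2 members called, where 2.09% of all genes were. This call was lost without control 2, control 3, or any 1 of the HFD-conFMT libraries, with adjusted p up to 0.117, and without both control 3 and HFD-conFMT 2 (0.31, adjusted p = 0.232). In HFD-AOSFMT against control the difference was 0.31 (adjusted p = 0.0784), and 0 of 25 members were called in limma, where 0.382% of all genes were and 3 members had an unadjusted p under 0.05. It passed without HFD-AOS 1 (adjusted p = 0.0251). In the comparisons fixed at the start Mt2 was not called. The differences were 0.21 for HFD against control (adjusted p = 0.670), 0.23 for AOS against control (adjusted p = 0.173) and 0.32 for HFD-AOS against HFD (adjusted p = 0.215). They were 0.31 for HFD-AOS against AOS (adjusted p = 0.357), 0.10 for HFD-AOSFMT against HFD and 0.17 for HFD-conFMT against HFD. The 2 FMT groups differed by -0.07. The AOS effect on the diet exceeded that without it by 0.09 (SE 0.107, adjusted p = 0.885).

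Mt1, whose protein has the same role, lay at 1368, 1212 and 1172 FPKM in control, at 1147, 1371 and 1145 in AOS and at 1483, 1274 and 1345 in HFD. Its values were 1865, 1446 and 1176 FPKM in HFD-AOS, 1308, 1410.1 and 1444 in HFD-AOSFMT and 1444, 1525 and 1399 in HFD-conFMT. HFD-AOS 1 was the highest of 18 and HFD-AOS 3 among the lower ones, so this group overlapped all others. The 3 libraries of HFD-conFMT lay above those of control (0.22 on the log2 scale, limma adjusted p = 0.350), as did 12.7% of all genes. They also lay above those of AOS, but that pair was not among the 10 comparisons. The share of all genes that did so was therefore not counted. HFD-AOS 1 also had the highest sum of 7 Leydig cell markers, 4949 FPKM. The other libraries of its group held 2850.3 and 2851 FPKM. Of these markers, Cyp17a1 stood at 266.7 ± 16.8 FPKM in HFD-AOS (SD, n = 3) and Hsd3b1 at 107.1 ± 4.32 FPKM. Cyp11a1 stood at 103.1 ± 5.51 FPKM there, Hsd17b3 at 46.9 ± 5.11 FPKM and Star at 30.3 ± 5.17 FPKM. Their spread is too small to hold that gap, which rests on the other markers of the list, Insl3 and Lhcgr. Against control 2 of the 7 markers lay above 0 in HFD-AOS (median -0.14 on the log2 scale), where 41.2% of all genes did. There limma called 0 of the 7, where 2.48% of all genes were called. The part of Leydig cells in the Mt1 level was not tested. Group means ran from 1221 ± 130 FPKM (SD, n = 3) in AOS to 1496 ± 347 FPKM in HFD-AOS. The difference between HFD-AOS and control was 0.24 on the log2 scale (SE 0.12, limma adjusted p = 0.289), and the F test gave an adjusted p of 0.464. That difference was 0.06 without HFD-AOS 1 (adjusted p = 0.781) and 0.40 without HFD-AOS 3 (adjusted p = 0.0602). Of the comparisons, HFD-AOS against AOS gave the smallest unadjusted p, with a difference of 0.27 (limma adjusted p = 0.504), which was 0.10 without HFD-AOS 1 and 0.43 without HFD-AOS 3.

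**Figure D2:**
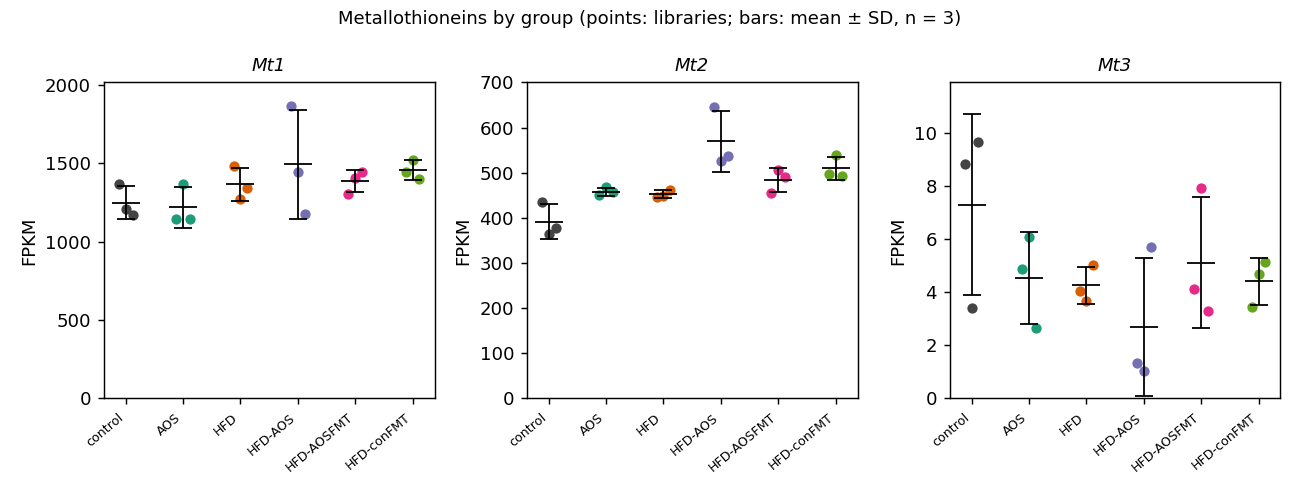
FPKM of Mt1, Mt2 and Mt3 in each library (points) by group, with the group mean and SD (bars, n = 3). The control points of Mt2 lie below all others. The Mt1 points of HFD-conFMT lie above those of control, as did 12.7% of all genes, and the other groups of Mt1 overlap control.

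Mt3, a metallothionein best known from brain, was uneven between replicates. It stood at 8.85, 3.4 and 9.67 FPKM in control, at 4.87, 6.07 and 2.66 in AOS and at 4.06, 3.68 and 5.04 in HFD. It stood at 1.33, 1.05 and 5.71 FPKM in HFD-AOS, 4.13, 7.95 and 3.29 in HFD-AOSFMT and 3.44, 4.68 and 5.16 in HFD-conFMT. Control held both the highest values and 1 of 3.40 FPKM, so the groups overlapped. HFD-AOS against control differed by -1.28 (SE 0.42, limma adjusted p = 0.10), and passed without HFD-AOS 3 (-1.82, adjusted p = 0.0243, up to 0.271 without other libraries). Mt4, known from the skin and tongue, reached 0.27 FPKM in AOS 3, 0.60 FPKM in HFD-AOS 2 and 0.58 FPKM in HFD-AOSFMT 3, and was listed at 0 elsewhere.

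The metallothionein transcripts are short, at 511 bases for the longest of Mt2 and 1085 bases for that of Mt1. Short transcripts as a class stood higher in the treated groups than in control. For the 1083 genes tested with transcripts up to 1100 bases, a limit set so as to hold Mt1, the median difference from control was 0.11 in HFD-AOS, 0.14 in HFD-AOSFMT and 0.15 in HFD-conFMT on the log2 scale. Over all genes these medians were -0.03, -0.02 and -0.01. Of the short genes, 3.05% stood at or above Mt2 in HFD-AOS against control, 11.3% in HFD-AOSFMT and 8.49% in HFD-conFMT. Mt1 stood closer to the middle, with 23.5%, 46.4% and 31.2% of short genes at or above it. Once a trend with transcript length was removed from each library, an adjustment added after seeing the data, the difference of Mt2 was 0.37 in HFD-AOS against control (adjusted p = 0.0633) and 0.17 in HFD-conFMT (adjusted p = 0.369). Neither was then called, and the F test for Mt2 gave an adjusted p of 0.234.

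**Figure D3:**
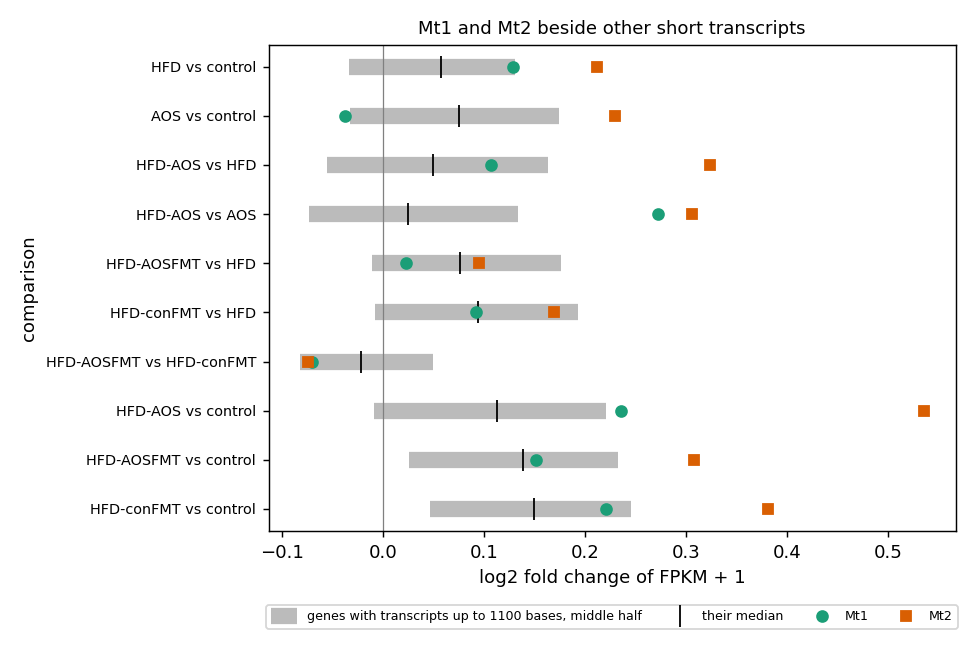
log2 fold change of Mt1 (circles) and Mt2 (squares) in each comparison, over the middle 50% (grey bars) and the median (lines) of genes with transcripts up to 1100 bases. Mt2 lies right of the bar in 7 of 10 comparisons, and Mt1 in 2.

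Markers of elongating spermatids are described by their sums in the same groups. The elongating spermatid sum was 42518 to 48450 FPKM in control, 53413 to 55055 in AOS and 39801 to 52685 in HFD. It was 52028 to 59687 FPKM in HFD-AOS, 50475 to 52899 in HFD-AOSFMT and 53633 to 57986 in HFD-conFMT. Control lay below all groups but HFD, whose library 2 held the lowest sum. In HFD-AOS against control 2.48% of all genes were called, 41.2% lay above 0 and their median was -0.03. There 6 of 6 elongating spermatid markers were higher, of which Prm2, a protamine, passed (log2 0.43, limma adjusted p = 0.0425). Of the round spermatid markers 5 of 6 were higher, 2 of them called, with a median of 0.14. Of the spermatocyte markers 0 of 7 were higher (median -0.12, 0 called in limma, 2 with an unadjusted p under 0.05), and of the spermatogonia markers 3 of 6 (median 0.0046). In AOS, HFD-AOSFMT and HFD-conFMT against control limma called 0 of the 6 elongating spermatid markers. Of all genes, 0.0229%, 0.382% and 2.09% were called in these comparisons. The part of transcript length in these marker values was not tested. The part of germ cell content in the Mt2 result was not tested either.

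Mtf1, the zinc sensor itself, stood at 20.5, 20.8 and 22.1 FPKM in control, at 19.9, 19.6 and 20.6 in AOS and at 21.8, 19.7 and 21.1 in HFD. Its values were 23.4, 21.3 and 21.3 FPKM in HFD-AOS, 19.9, 19.9 and 20.7 in HFD-AOSFMT and 20.1, 19.5 and 20.3 in HFD-conFMT. HFD-AOS lay above AOS in all 3 libraries, by 0.13 (SE 0.049, limma adjusted p = 0.466), as did 5.17% of all genes. The highest library was again HFD-AOS 1. HFD-conFMT lay below control in all libraries (-0.08, adjusted p = 0.411), as did 15.9% of all genes. Group means ran from 19.95 to 22.03 FPKM, and 0 of the comparisons passed. Mtf2, named for metal response elements but known as a partner of the Polycomb repressive complex PRC2, stood at 13.97, 14.9 and 12.9 FPKM in control, at 12.5, 12.6 and 13.1 in AOS and at 12.7, 13.4 and 14.1 in HFD. The diet groups with AOS or FMT stood at 12.04, 12.7 and 11.8 FPKM in HFD-AOS, 14.5, 12.1 and 12.3 in HFD-AOSFMT and 12.3, 12.7 and 12.4 in HFD-conFMT. Its HFD-AOS values lay below those of control (-0.18, limma adjusted p = 0.134), as did those of HFD-conFMT (-0.15, adjusted p = 0.239). Of all genes, 14.1% and 15.9% did so in these comparisons.

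Among the genes of zinc efflux and compartment loading 0 of 8 tested passed in any comparison, named here with limma. The share of all genes that passed was highest in HFD-AOS against control, at 2.48%. Slc30a1, the zinc exporter of the cell membrane and itself a target of MTF-1, stood at 10.3, 9.01 and 9.64 FPKM in control, at 9.6, 9.51 and 10.2 in AOS and at 8.95, 10.6 and 8.95 in HFD. It stood at 8.39, 9.51 and 9.46 FPKM in HFD-AOS, 9.27, 9.38 and 9.65 in HFD-AOSFMT and 10.3, 9.46 and 9.88 in HFD-conFMT. Groups overlapped throughout, and the differences from control ran from -0.07 in HFD-AOS (SE 0.067, adjusted p = 0.577) to 0.03 in HFD-conFMT. The F test gave an adjusted p of 0.801.

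Slc30a4, which loads zinc into vesicles and is mutated in the lethal milk mouse, stood at 23.98, 23.7 and 22.5 FPKM in control, at 21.7, 24.7 and 21.6 in AOS and at 23.3, 23.7 and 23.6 in HFD. Its values were 19.5, 21.4 and 20.4 FPKM in HFD-AOS, 23.6, 20.8 and 22.3 in HFD-AOSFMT and 22.2, 23.8 and 22.9 in HFD-conFMT. All 3 HFD-AOS libraries lay below those of control, AOS and HFD, as did 14.1%, 5.85% and 8.49% of all genes in turn. The difference from HFD was -0.20 (SE 0.057, limma adjusted p = 0.232), that from AOS -0.14 (adjusted p = 0.476) and that from control -0.18 (adjusted p = 0.0854). Slc30a9, linked to zinc export from mitochondria, stood at 19.2, 19.6 and 18.9 FPKM in control, at 17.5, 18.6 and 16.9 in AOS and at 17.8, 18.6 and 17.9 in HFD. Its values were 15.2, 17.6 and 17.2 FPKM in HFD-AOS, 18.6, 17.7 and 17.2 in HFD-AOSFMT and 18.1, 17.01 and 18.3 in HFD-conFMT. All 3 control libraries lay above the other 15, which 1.34% of genes tested did. AOS against control gave -0.12 (SE 0.055, limma adjusted p = 0.316) and HFD-AOS against control -0.20 (adjusted p = 0.0616). The latter passed without HFD-AOS 2 (adjusted p = 0.0498, up to 0.196 without other libraries).

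Slc30a6, which with Slc30a5 feeds zinc to enzymes of the secretory pathway, stood at 4.85, 5.02 and 3.83 FPKM in control, at 4.06, 3.18 and 5.7 in AOS and at 4.26, 4.54 and 5.65 in HFD. Its values were 7.4, 5.34 and 5.34 FPKM in HFD-AOS, 4.59, 4.25 and 6.4 in HFD-AOSFMT and 3.51, 5.8 and 3.81 in HFD-conFMT. HFD-AOS 1 was the highest, and all 3 HFD-AOS libraries lay above control (0.33, limma adjusted p = 0.343), as did 7.13% of all genes. HFD-AOS against AOS gave 0.42 (SE 0.19, limma adjusted p = 0.504) with overlapping libraries. Slc30a5 had group means between 5.30 and 6.10 FPKM, and Slc30a7, a transporter of the Golgi, between 1.47 and 1.73 FPKM. Slc30a2, known for loading zinc into milk vesicles, had group means between 8.06 and 8.87 FPKM. Slc30a3 varied least between groups among the 8, from 83.2 ± 2.08 FPKM (SD, n = 3) in control to 88.7 ± 1.37 FPKM in HFD-AOS. All 3 of its HFD-AOS libraries (87.25 to 89.95 FPKM) lay above those of control (81.1 to 85.25 FPKM), as did 7.13% of all genes.

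Of 12 zinc importers tested, 1 passed in 1 of the 10 comparisons, HFD-conFMT against control, where 2.09% of all genes did. In AOS and in HFD-AOS against control 2 of the 12 lay above 0 on the log2 scale, where 40.2% and 41.2% of all genes did. In HFD-AOS against HFD 2 did as well, where 43.9% of all genes did, and in HFD against control 3, where 45.2% did. Slc39a9, an importer of the Golgi and cell membrane, stood at 4.04, 3.91 and 4.04 FPKM in control, at 3.5, 3.69 and 3.59 in AOS and at 3.4, 3.56 and 3.95 in HFD. Its values were 3.42, 3.27 and 3.32 FPKM in HFD-AOS, 3.42, 3.36 and 3.7 in HFD-AOSFMT and 3.21, 3.31 and 3.22 in HFD-conFMT. Control lay above every other library but HFD 3, and HFD-conFMT had the lowest mean. In HFD-conFMT against control it fell by 0.23 on the log2 scale (SE 0.055, limma adjusted p = 0.0429). The call was lost without both control 3 and HFD-conFMT 2 (-0.24, adjusted p = 0.237), and in 11 of the 18 fits without 1 library. These were the fits without any 1 library of control, HFD-AOSFMT or HFD-conFMT, without AOS 1 and without AOS 3, with adjusted p up to 0.138. With the transcript length trend removed the difference was -0.17 (adjusted p = 0.204). HFD-AOS against control gave -0.20 (adjusted p = 0.0570), and AOS against control -0.12 (adjusted p = 0.30).

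Slc39a3, an importer of the cell membrane, had its lower values in AOS, HFD and HFD-AOS. It stood at 11.6, 12.6 and 12.3 FPKM in control, at 10.5, 10.5 and 11.4 in AOS and at 11.1, 10.1 and 10.7 in HFD. It stood at 9.4, 9.99 and 11.7 FPKM in HFD-AOS, 11.9, 12.7 and 12.3 in HFD-AOSFMT and 13.1, 12.4 and 12.4 in HFD-conFMT. AOS and HFD lay below all control libraries, as did 15.2% and 7.35% of all genes in turn. Both FMT groups lay in or above the range of control. Against HFD the difference was 0.19 in HFD-AOSFMT (SE 0.065, limma adjusted p = 0.390) and 0.23 in HFD-conFMT (adjusted p = 0.197), with no overlap in either. Of all genes, 8.34% and 10.3% lay wholly above HFD in these comparisons. HFD against control gave -0.18 (adjusted p = 0.670) and AOS against control -0.16 (adjusted p = 0.252). The F test gave an adjusted p of 0.116. Without HFD-AOS 3 the F test passed (adjusted p = 0.0267), as did HFD-AOS against control (adjusted p = 0.0199, with all libraries -0.22 and 0.0782).

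**Figure D4:**
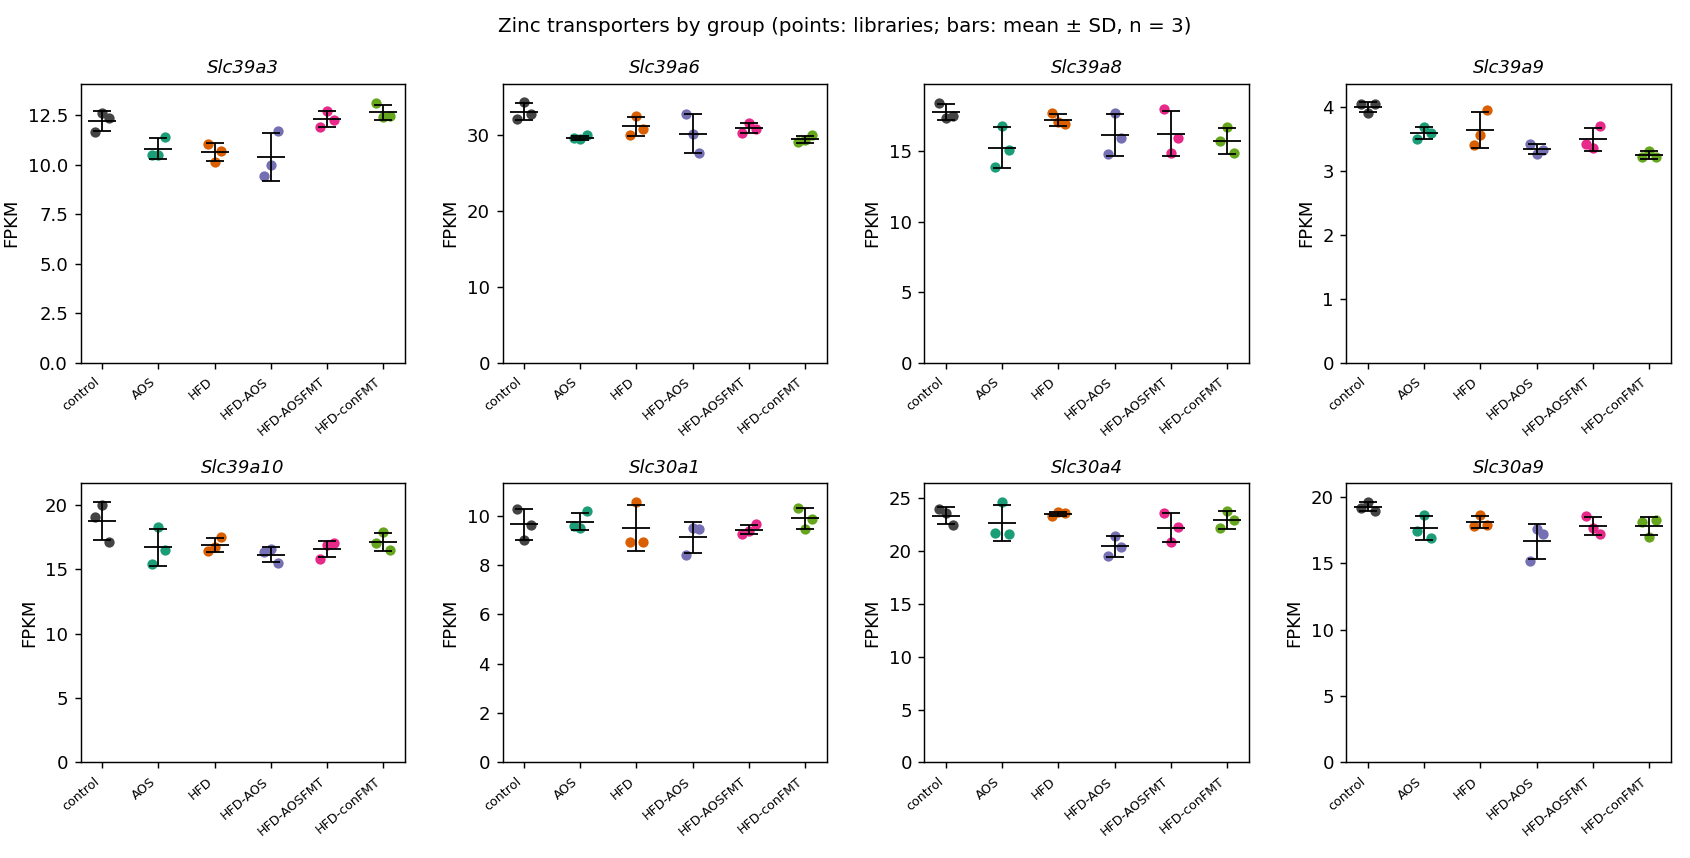
FPKM of 8 zinc transporters in each library (points) by group, with the group mean and SD (bars, n = 3) and axes from 0. Slc39a3 is lower in AOS, HFD and HFD-AOS than in control and the FMT groups by mean, and Slc39a9 and Slc30a9 have their highest mean in control.

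Slc39a6 stood at 32.1, 34.4 and 32.9 FPKM in control, at 29.6, 29.5 and 29.96 in AOS and at 30.04, 32.5 and 30.9 in HFD. Its values were 32.7, 30.2 and 27.6 FPKM in HFD-AOS, 30.3, 31.6 and 30.8 in HFD-AOSFMT and 29.1, 29.3 and 29.98 in HFD-conFMT. All libraries of AOS, HFD-AOSFMT and HFD-conFMT lay below control, as did 15.2%, 15.4% and 15.9% of all genes in turn. Differences from control were -0.15 in AOS (SE 0.051, limma adjusted p = 0.178), -0.13 in HFD-AOS (adjusted p = 0.157), -0.10 in HFD-AOSFMT (adjusted p = 0.350) and -0.16 in HFD-conFMT (adjusted p = 0.103, and 0.0417 without HFD-AOS 1). Slc39a10, its partner, stood at 19.1, 19.96 and 17.1 FPKM in control, at 15.4, 18.2 and 16.5 in AOS and at 16.4, 16.7 and 17.5 in HFD. Its values were 16.3, 16.6 and 15.5 FPKM in HFD-AOS, 15.8, 16.9 and 16.99 in HFD-AOSFMT and 17.00, 17.9 and 16.5 in HFD-conFMT. Most libraries of the other groups lay below the lowest control value of 17.1 FPKM. HFD-AOS against control gave -0.20 (SE 0.064, limma adjusted p = 0.0941), AOS -0.16 (adjusted p = 0.257), HFD -0.14 (adjusted p = 0.732) and HFD-AOSFMT -0.17 (adjusted p = 0.195).

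Slc39a8, which carries zinc, manganese and cadmium and is known from cadmium damage to mouse testis, stood at 18.4, 17.4 and 17.5 FPKM in control, at 13.9, 16.8 and 15.1 in AOS and at 17.7, 17.04 and 16.9 in HFD. Its values were 14.8, 17.7 and 15.9 FPKM in HFD-AOS, 17.96, 14.8 and 15.9 in HFD-AOSFMT and 15.7, 16.7 and 14.9 in HFD-conFMT. AOS lay below control in all 3 libraries (-0.21, SE 0.077, limma adjusted p = 0.209), and HFD-conFMT did too (-0.17, adjusted p = 0.260). Of all genes, 15.2% and 15.9% did so in these comparisons. Slc39a7, which releases zinc from the endoplasmic reticulum, stood at 13.2, 12.8 and 14.3 FPKM in control, at 12.8, 12.8 and 12.8 in AOS and at 12.4, 13.6 and 12.7 in HFD. Its values were 11.8, 13.3 and 13.3 FPKM in HFD-AOS, 12.9, 12.1 and 12.1 in HFD-AOSFMT and 13.2, 13.7 and 13.6 in HFD-conFMT. HFD-AOSFMT lay below HFD-conFMT in all libraries (-0.12, SE 0.054, limma adjusted p = 1.00), as did 5.39% of all genes. Of the 50-base stretches of Slc39a7, 83.9% also occur in Gm20427, an annotated gene on the same strand, so the split of reads between them is uncertain.

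Slc39a14, an importer of zinc, iron and manganese best known from liver, stood at 1.72, 1.87 and 2.07 FPKM in control, at 1.59, 1.56 and 2.02 in AOS and at 1.65, 1.97 and 1.86 in HFD. Its values were 1.74, 1.67 and 1.73 FPKM in HFD-AOS, 1.7, 1.81 and 1.88 in HFD-AOSFMT and 1.55, 1.49 and 1.66 in HFD-conFMT. HFD-conFMT lay below control in all libraries (-0.17, SE 0.075, limma adjusted p = 0.241), as did 15.9% of all genes. Group means of Slc39a1, an importer of the cell membrane that shares 21.8% of its 50-base stretches with a pseudogene, ran from 12.3 to 13.96 FPKM. Those of Slc39a13, an importer of the Golgi known from connective tissue, ran from 20.6 to 22.4 FPKM. Slc39a4, the intestinal zinc importer, ran from 1.98 to 2.54 FPKM, Slc39a11 from 3.02 to 3.39 FPKM and Slc39a12 from 2.07 to 2.61 FPKM.

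For the diet alone, 0 of 25 members were called against control in limma, where 0% of all genes were. At an unadjusted p under 0.05 stood 3 members, Mt2 higher and Slc39a3 and Slc39a10 lower, where 6.75% of all genes did. The median member difference was -0.04 on the log2 scale, against -0.01 over all genes.

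For AOS without the diet, 0 of 25 members were called in limma, where 0.0229% of all genes were. An unadjusted p under 0.05 was reached by 7 members, where 15.8% of all genes reached it. Mt2 was higher, where 5.58% of all genes were. Slc30a9, Slc39a3, Slc39a6, Slc39a8, Slc39a9 and Slc39a10 were lower, where 10.2% of all genes were. Of these 6 lower genes, 5 belong to the importers. Without overlap between the 3 and 3 libraries stood 2 members higher, where 7.96% of all genes did, and 6 lower, where 15.2% did. The median difference was -0.07 for the members and -0.03 for all genes. The 7 Leydig cell markers had a median difference of -0.36 in this comparison, with 0 of 7 above 0, and their part in these values was not tested.

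For AOS on the diet, 0 of 25 members were called against HFD in limma, where 0% of all genes were, and 2 had an unadjusted p under 0.05 (Mt2 higher, Slc30a4 lower), where 12.7% did. HFD-AOS against AOS also gave 0 calls in limma, where 0% of all genes were called, and 5 members at an unadjusted p under 0.05, where 9.69% stood. These were Mt1, Mt2, Mtf1 and Slc30a6 with higher values and Slc30a4 with lower ones. For the AOS effect on the diet minus that off it, limma called 0 members, where 0% of all genes were called. At an unadjusted p under 0.05 stood 0 members there, where 6.86% of all genes did.

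For FMT on the diet, HFD-AOSFMT against HFD gave 0 calls among 25 members in limma, where 0.0229% of all genes were called. At an unadjusted p under 0.05 stood 1 member, Slc39a3, where 9.82% of all genes did. HFD-conFMT against HFD gave 0 calls in limma, where 0% of all genes were called. Mt2 and Slc39a3 with higher values and Slc39a9 with lower ones had an unadjusted p under 0.05, where 12.3% of all genes did. Between the FMT groups limma called 0 members, where 0.00763% of all genes were called, and Slc39a7 alone among the 25 had an unadjusted p under 0.05, where 3.12% did. The comparisons with HFD share its libraries, as do those with control, so they are not independent of each other.

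Against control, the combined groups gave 9 members with an unadjusted p under 0.05 in HFD-AOS, where 21% of all genes stood, 3 in HFD-AOSFMT, where 17.5% did, and 6 in HFD-conFMT, where 18.9% did. Of the 9, Mt2 was higher, where 7.62% of all genes were, and 8 were lower, where 13.4% were. Of 25 members 7 lay above 0 in HFD-AOS, where 41.2% of all genes did. The median differences of the members were -0.09, -0.06 and -0.07. In the F test 4 members had an unadjusted p under 0.05 (Mt2, Slc30a4, Slc39a3 and Slc39a9), where 18% of all genes did.

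**Figure D5:**
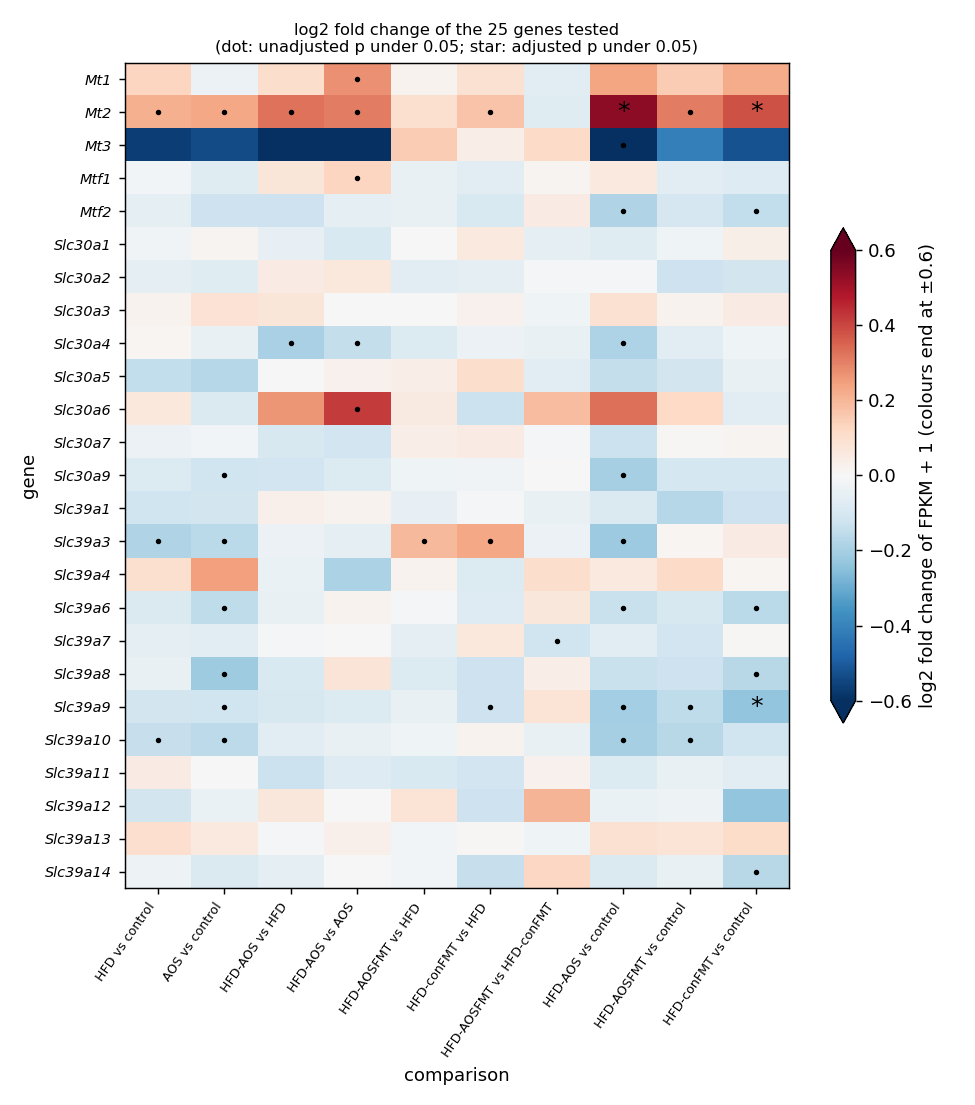
log2 fold change of FPKM + 1 (colour, ending at ±0.6) of the 25 genes tested in the 10 comparisons, the last 3 of which were added after seeing the data; dots mark an unadjusted p under 0.05 and stars an adjusted p under 0.05. Stars stand at Mt2 in 2 comparisons and at Slc39a9 in 1.

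Other metals were read from lists of genes written from general knowledge. Of 13 genes of copper handling 12 were tested, and 1 passed in 1 comparison, where 2.09% of all genes did. Sod1, the copper and zinc superoxide dismutase, rose in HFD-conFMT against control, from 279 ± 16.8 to 326 ± 15.2 FPKM (SD, n = 3, log2 0.23, limma adjusted p = 0.0422). That call was lost without both control 3 and HFD-conFMT 2 (0.19, adjusted p = 0.283), without control 2 (adjusted p = 0.131) and without control 3 (adjusted p = 0.143). It was lost as well without any 1 HFD-conFMT library, with adjusted p up to 0.164. Removing AOS 1, AOS 3, HFD 3, HFD-AOSFMT 2 or HFD-AOSFMT 3 also ended it, with adjusted p from 0.0539 to 0.0569. Under quantile normalization the difference was 0.12 (adjusted p = 0.244), and the call was lost too with no filter, no trend, just the groups compared or the length adjustment, with adjusted p from 0.0505 to 0.0774. Cox17, a copper carrier of mitochondria, gave 0.27 in the same comparison (adjusted p = 0.0849).

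Of 17 genes of iron and manganese handling 14 were tested, and 0 passed in limma in any of the 10 comparisons. In HFD-AOS against control 7 had an unadjusted p under 0.05, 1 higher and 6 lower, where 7.62% and 13.4% of all genes were, with a median of -0.11 for the list and -0.03 for all genes. Ncoa4, the receptor that sends ferritin to breakdown, gave -0.19 (SE 0.050, adjusted p = 0.0569). Of 7 genes of the response to metals and oxidants, several known to be induced by cadmium, 6 were tested and 0 passed in limma. In HFD-AOS against control 0 of the 6 lay above 0, where 41.2% of all genes did, and the median of the list was -0.16. Gclc, Gclm and Txnrd1 had an unadjusted p under 0.05 with lower values, as did 13.4% of all genes. Txnrd1, a thioredoxin reductase, stood at 6.41 ± 0.135 FPKM against 7.55 ± 0.493 FPKM in control (SD, n = 3, limma adjusted p = 0.0771). Metallothioneins are also induced by glucocorticoids, and of 10 such responsive genes 9 were tested and 0 passed in limma. Per1, a clock gene, gave 0.14 in HFD-AOS against control (adjusted p = 0.108), while Fkbp5 gave -0.21 (adjusted p = 0.206).

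Across the 18 libraries the levels of Mt1 and Mt2 were correlated. Permutations shuffled the libraries regardless of group, so their p-values also take in differences between groups. Pearson's r of their log2 values was 0.694 (permutation p = 0.00192, adjusted over 3 relations 0.00576), and Spearman's rho was 0.564 (permutation p = 0.0163, adjusted 0.0489). Without AOS 3 and HFD-AOS 1, the libraries farthest from the median of Mt1, r was 0.532 (permutation p = 0.0331) and rho 0.50 (permutation p = 0.05001). After quantile normalization r was 0.444 and did not pass (permutation p = 0.0700). For deviations from the group means, which leave out differences between groups, r was 0.741 and rho 0.645, and no p-value was computed for these. The relations with Slc30a1 did not pass. For Mt1 and Slc30a1 r was -0.430 (permutation p = 0.0747, adjusted 0.112) and rho -0.295 (permutation p = 0.235, adjusted 0.352), and without AOS 3 and HFD-AOS 1 r was 0.0116. For Mt2 and Slc30a1 r was -0.257 (permutation p = 0.302) and rho -0.178 (permutation p = 0.478), with r at -0.122 without control 2 and HFD-AOS 1. The ratio of Mt2 to Mt1 in FPKM ran from 0.2998 in control 2 to 0.456 in HFD-AOS 3.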

How the data were processed

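Frozen mouse testis was sequenced in 18 libraries, 6 groups of 3 by the labels. Per the labels' protocols, RNA was taken with Trizol and a column kit, and standard Illumina libraries were made from total RNA. Mapping was done with Bowtie 0.12.2 against mm10, per the submitters' processing notes. Not given in the sources used here are the read counter, the gene annotation and its strand setting. Deposited by the authors was 1 table with 20985 rows and a header that names no unit. The deposited values were read as FPKM from their sums and their steps at low values. Column names carry group letters and numbers, by which samples were assigned. Repeated symbols (6 rows) were dropped.

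The genes, gene lists and most choices were set with earlier results of these data known. Genes whose mean reached 1 FPKM were fitted as log2(FPKM + 1) in 1 limma model of 6 group means with a mean-variance trend (limma 3.58.1, R 4.3.3, 12 residual degrees of freedom), with two-sided p-values adjusted over 13105 genes. The model was tested on simulated data. In total, 7 comparisons, an F test and a difference of AOS effects were set at the start, and 3 comparisons with control and a transcript length adjustment were added after seeing the data. Fold changes on this scale understate those of low genes. Values in each library are given for Mt1, Mt2, Slc30a1 and each member with an unadjusted p under 0.05 in a comparison set at the start. Mt3, Mtf2 and Slc39a14 were added after their values were seen, as were other genes named outside the set. Correlations used 100000 permutations. Gene positions and overlaps are from GENCODE M21 on GRCm38, the assembly of mm10, promoters are from RefSeq on GRCm38.p6, and 98.1% of genes tested had a length. Alternatives changed the pseudocount, filter, scaling, block, weights, trend or libraries. Figures were drawn with matplotlib 3.10.9.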

Additional observations from a re-analysis of the deposited data

How the results depend on the processing

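In each of the 7 comparisons set at the start, and for the difference of AOS effects, 0 members were called under each of 29 alternatives, leaving out single libraries included. The calls in the added comparisons and the F test were less stable. In HFD-AOS against control, with 1 member called (Mt2), 2 were called with a mean of at least 5 FPKM and with no trend, 0 when the model held just those groups (Mt2 adjusted p = 0.260) or after the transcript length adjustment, and 1 to 3 without 1 library. In HFD-AOSFMT against control, with 0 called, array weights gave 1, and leaving out 1 library 0 to 1. In HFD-conFMT against control, with 2 called, 1 was called with no filter, a mean of at least 5 FPKM (which removes Slc39a9), quantile normalization, equal library medians, the replicate block or just the groups compared. There 0 were called without both control 3 and HFD-conFMT 2 and after the length adjustment, and 0 to 3 without 1 library. In the F test, with 1 called (Mt2), 0 were called with no filter, quantile normalization, the replicate block, no trend, without both libraries and after the length adjustment, and 0 to 2 without 1 library. Apart from the settings named, the cause was not tested. A pairing of samples by replicate number was not seen, though these values cannot exclude one. In deviations from the group means, same-numbered libraries of different groups had a median correlation of -0.0091 over 45 pairs. Libraries of other numbers had -0.0031 over 90 pairs, and 5 of 18 libraries correlated best with their own number. The correlation of Mt1 and Mt2 was 0.444 after quantile normalization (permutation p = 0.0700), and 0.504 to 0.818 without 1 library. That of Mt2 and Slc30a1 ran from -0.457 to 0.102 without 1 library.

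Counts over all genes moved more. Called genes numbered 325 in HFD-AOS against control (0 to 500 over the alternatives), 274 in HFD-conFMT (4 to 925) and 50 in HFD-AOSFMT (1 to 576), and 43 in the F test (1 to 145). AOS against control gave 3 (0 to 240), HFD-AOSFMT against HFD 3 (1 to 26), HFD-AOSFMT against HFD-conFMT 1 (1 to 16), HFD-conFMT against HFD 0 (0 to 17), HFD-AOS against AOS 0 (0 to 30), HFD-AOS against HFD 0 (0 to 4) and HFD against control 0 (0 to 1). Depth is unknown, and genes near 1 FPKM or below rest on few reads.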
